A study of Mus musculus with 1 sample.

Results

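In total, 8 genes of water and ion transport were measured in single cells of mouse stomach organoids. They are the water channel genes Aqp5 and Aqp3, the chloride channel gene Cftr, the cotransporter genes Slc12a2 and Slc4a4, the carbonic anhydrase gene Car2, the sodium pump gene Atp1b1 and the potassium channel gene Kcnq1. They were chosen by name, as 8 of the 32285 genes in the deposited matrix, and all 8 were found there. Organoids are hollow balls of epithelial cells grown in a gel. The 1 library is labelled wild type with no treatment, was made with a kit that counts 3′ ends, and comes from cultures harvested on day 7. Strain, age and number of mice are not given in the sources used here, and the other genotypes that the series names were not analysed here.

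Fluid secretion by an epithelium starts with the sodium pump, which sets the ion gradients that the other transporters use. Cotransporters in the basal membrane load the cell with chloride and bicarbonate, carbonic anhydrase makes bicarbonate, and chloride channels in the apical membrane release the anions. Water follows through aquaporins. Aqp5 is the aquaporin of the apical membrane of many exocrine glands, and in the mouse stomach it is known as a marker of the base of antral glands, where stem cells lie. Kcnq1 is known in the stomach for recycling potassium in acid-secreting parietal cells.

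Cells are barcodes that passed a filter of 500 detected genes or more, with mitochondrially encoded genes taking 20% of UMIs or less. A UMI (unique molecular identifier) marks 1 captured transcript. The filter kept 1892 of 1991 barcodes, with 20118334 gene UMIs, a median of 8513 UMIs per cell (890 to 47183) and a median of 2220 genes. Epcam and Krt8, genes of epithelial cells, had a UMI in 96.6% and 97.9% of cells. Cells were grouped into 7 clusters without the transport genes, and they are given by number and leading genes. The 61 cells of cluster 7, led by Cyba, Reg3g and Gm3776, stand apart. A UMI of a Y-linked gene was found in 52.5% of them and in 0.983% of the other 1831 cells, so a part of the values is also given without cluster 7. Levels are CPM, the UMIs of a gene per 1000000 gene UMIs of the cells named. They are not divided by transcript length, so an order of genes by CPM or UMIs is one of captured 3′ ends and not of transcripts per length. Intervals are 95% and cover counting error only, and with 1 library no difference was tested and no p-value was computed.

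The start regions of 3 members are shown because Aqp5 and Atp1b1 were found in most cells and Aqp3, also a water channel, in 7. They are from RefSeq on GRCm38.p6, 5′ to 3′ on the strand of the gene, and capitals mark 4 motifs searched on both strands, which are the TATA box (TATAAA), the CCAAT box (letters as its name), the GC box (GGGCGG) and the core of the hypoxia response element (ACGTG). For Aqp5, 30 bases on the plus strand are shown (chr15:99590933-99590962, from -95 to -66 relative to the RefSeq start). GENCODE M21 starts the gene further upstream and places these bases in its 5′ UTR. For Aqp3 (chr4:41098184-41098433, minus strand) and Atp1b1 (chr1:164458356-164458605, minus strand) the 250 bases before the start are shown, none of them in an annotated exon.
Aqp5: gcgtgggtCACGTGgcccGGGCGGgtccgc
Aqp3: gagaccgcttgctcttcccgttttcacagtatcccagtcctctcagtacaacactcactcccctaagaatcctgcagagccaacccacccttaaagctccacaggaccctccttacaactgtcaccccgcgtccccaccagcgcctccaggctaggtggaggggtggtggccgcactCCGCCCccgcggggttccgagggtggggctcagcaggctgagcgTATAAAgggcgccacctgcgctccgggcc
Atp1b1: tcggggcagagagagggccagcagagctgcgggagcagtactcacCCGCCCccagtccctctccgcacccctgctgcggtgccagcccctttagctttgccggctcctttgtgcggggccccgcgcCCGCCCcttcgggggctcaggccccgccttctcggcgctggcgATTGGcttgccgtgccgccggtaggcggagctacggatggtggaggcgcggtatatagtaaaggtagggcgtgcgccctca
The 250 bases before the Aqp5 start held 3 matches of ACGTG, a pair of which are the overlapping strands of the CACGTG shown. ACGTG was found in 16.6% of all 32851 such windows and in no window of another member. TATAAA was found in 12.4% of windows, and among the members only in that of Aqp3, 29 bases before its start. GGGCGG was found in 32.7% of windows. It matched 2 times each for Aqp5 and Atp1b1, once for Aqp3, 6 times for Cftr and once in the first window of Slc4a4. GENCODE M21 exons cover 246 of the 250 bases searched for Aqp5 and all 250 of that Slc4a4 window. They cover none in the other windows searched for the members. CCAAT, in 33.8% of windows, matched once for Atp1b1 and once in the second window of Slc4a4. Capitals that read CCGCCC or ATTGG are matches on the opposite strand. A match describes letters and not a used site. Windows of 5 of the 8 members were searched, without Slc12a2, Car2 and Kcnq1.

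Aqp5 (ENSMUSG00000044217) lies on the plus strand of chromosome 15, from 99590782 to 99594829 (GRCm38). Its 23007 UMIs made 1144 CPM (1129 to 1158). It ranked 137th by UMIs among all genes. A UMI was found in 91.0% of cells (89.6% to 92.3%). The level in a cell had a median of 921 CPM, with quartiles at 369 and 1709 CPM, and reached 8861 CPM. With each cell reduced to 3000 UMIs, a UMI remained in 81.1% of 1835 cells. At that depth the variance of Aqp5 counts was 3.54 times their mean, a ratio that is 1 for counting noise alone. The median of this ratio was 1.46 over the 127 genes with a mean within 2 times that of Aqp5, and 8 of them (6.30%) had a higher one. Aqp5 thus varied between cells more than most genes of its level.

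Cells without an Aqp5 UMI numbered 170, with a median of 5610 UMIs against 8863 in the cells with one. Of these 170 cells, 91 were in cluster 2, 39 in cluster 3 and 17 each in clusters 1 and 7. Only 44 of them had 8000 UMIs or more. The 99 barcodes that the filter removed had 901 UMIs at the median and an Aqp5 level of 708 CPM (565 to 877). No cells known to lack Aqp5 were available, so the share of free RNA among its UMIs was not measured.

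The neighbours of Aqp5 on chromosome 15 are also aquaporin genes, and they were not detected. Aqp2, 6.24 kb before Aqp5, and Aqp6, 6.57 kb after it, had 0 UMIs. With 3 counts taken as the limit for 0, and not an exact interval, this allows up to 0.159% of cells with a UMI each. Aqp3, a channel for water and glycerol (chromosome 4, 41092722 to 41098183, minus strand), had 7 UMIs in 7 cells, or 0.348 CPM (0.140 to 0.717). Of the 9 other water channel genes listed, 5 had no UMI. Aqp11, a channel of intracellular membranes, was at 15.6 CPM (13.9 to 17.4) and Aqp1 at 11.3 CPM (9.91 to 12.9).

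Among anion transporters, Cftr was close to the floor and the 2 cotransporters were detected. Cftr, the chloride and bicarbonate channel of the apical membrane (chromosome 6, 18170687 to 18322768, plus strand), had 35 UMIs in 34 cells, or 1.74 CPM (1.21 to 2.42). Slc12a2, the sodium-potassium-chloride cotransporter that loads cells with chloride (chromosome 18, 57878678 to 57946821, plus strand), was at 115 CPM (110 to 119) and was seen in 52.0% of cells (49.7% to 54.2%). Slc4a4, the sodium bicarbonate cotransporter (chromosome 5, 88886818 to 89239653, plus strand), was at 64.0 CPM (60.6 to 67.6) and was seen in 36.7% of cells (34.6% to 39.0%). RefSeq gives Slc4a4 2 start regions, and counts of 3′ ends do not tell which was used.

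A UMI of the enzyme and pump genes was found in most cells. Car2, the cytosolic carbonic anhydrase (chromosome 3, 14886273 to 14900770, plus strand), was at 259 CPM (252 to 266) and was seen in 74.8% of cells (72.8% to 76.7%). Atp1b1, the beta subunit of the sodium pump (chromosome 1, 164437109 to 164458355, minus strand), was at 224 CPM (218 to 231) and was seen in 74.5% of cells (72.4% to 76.4%). Kcnq1 (chromosome 7, 143106362 to 143427042, plus strand) was at 39.3 CPM (36.6 to 42.1) and was seen in 29.9% of cells (27.8% to 32.0%). Kcnq1ot1, which is transcribed from the other strand within Kcnq1, was at 53.4 CPM. The sources used here do not say whether counting used strand, so UMIs of the pair may not be fully separated. The same holds for Atp1b1 and Nme7 (24.8 CPM). In the 99 removed barcodes, Car2 and Atp1b1 were each at 169 CPM (103 to 260.5), Slc12a2 at 135 CPM (77.1 to 219), Slc4a4 at 84.3 CPM (40.4 to 155) and Kcnq1 at 25.3 CPM (5.22 to 73.9). All 5 intervals held the level in cells. As for Aqp5, the share of free RNA was not measured, so a cell with a UMI is not read as a cell that expresses the gene.

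After reduction to 3000 UMIs per cell, the share of cells with a UMI was 49.4% for Car2, 43.3% for Atp1b1, 23.7% for Slc12a2, 14.7% for Slc4a4 and 10.6% for Kcnq1. It was 0.218% for Cftr and 0.163% for Aqp3. The ratio of variance to mean was 1.51 for Car2, 1.31 for Slc12a2, 1.27 for Atp1b1, 1.25 for Slc4a4 and 1.05 for Kcnq1. The Kcnq1 ratio was near that of counting noise alone, at a mean of 0.116 UMIs per cell, so its spread between cells is not judged from it. The ratio grows with the level, so its values are not ranked between genes.

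Across clusters, Aqp5 was lowest in cluster 7 at 306 CPM (273 to 342), and highest in cluster 5 at 1941 CPM (1877 to 2006). Cluster 2 (led by AC168977.1, 2610528A11Rik and the metallothionein gene Mt1) and cluster 3 (Ly6m, Sprr1a and Atg9b) were at 542 CPM (516 to 568) and 566 CPM (544 to 589), and their intervals overlapped. Above them came cluster 6 (Aspm, Knl1 and Dlgap5, genes of mitosis) at 1183 CPM (1127 to 1242) and cluster 1 (Cxcl5, Cxcl2 and Cadps) at 1482 CPM (1449 to 1515). Cluster 4 (Psca, Prss22 and Cav1) was at 1771 CPM (1724 to 1818), below cluster 5 (Rnase1, Aox3 and Scgb3a1). Median depth was 14450 UMIs in cluster 7, 6243 in cluster 2, 12734 in cluster 3 and 12243.5 in cluster 6. It was 9420 in cluster 1, 8127.5 in cluster 4 and 6411 in cluster 5. Apart from cluster 2, median depth was thus lower in clusters with more Aqp5. The part of depth in the order of clusters was not tested.

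**Figure D1:**
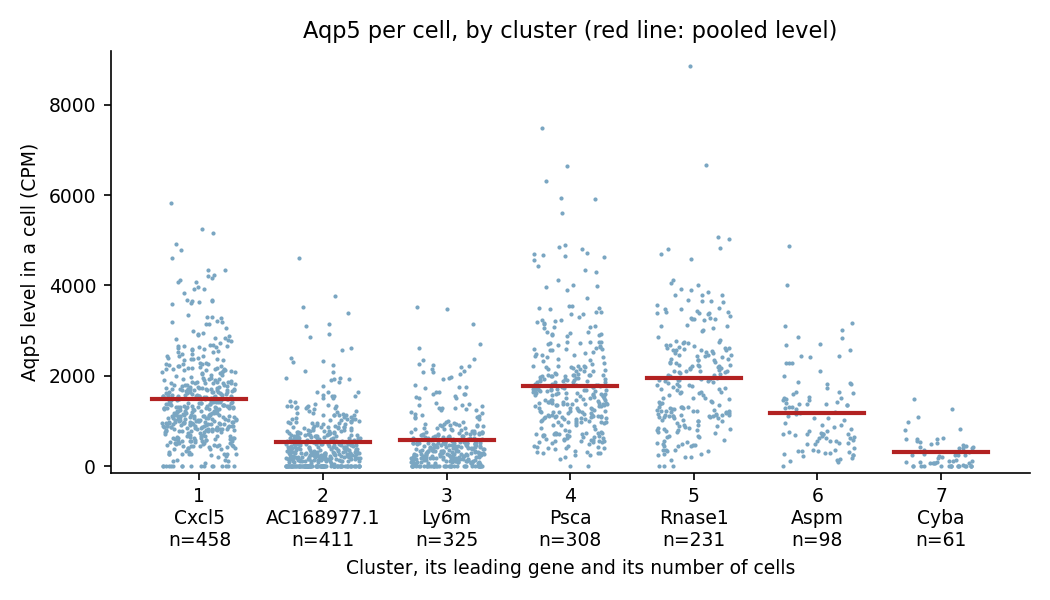
Aqp5 level in each cell (CPM, linear axis) in 7 clusters, with 1 point per cell and a red line at the pooled level. Single cells overlap widely between clusters, while the pooled level runs from 306 CPM in cluster 7 to 1941 CPM in cluster 5.

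Slc12a2 and Car2 were also low in clusters 2 and 3, but not in cluster 7. Slc12a2 was highest in cluster 1 at 180 CPM (168 to 191), followed by cluster 5 at 147 CPM (130 to 166). It was lowest in cluster 2 at 51.4 CPM (43.7 to 60.1). In cluster 4, where Aqp5 was high, it was 79.6 CPM (70.0 to 90.2), close to the 84.9 CPM of cluster 3. Car2 was at 131 CPM (118 to 144) in cluster 2 and 134 CPM (123 to 145) in cluster 3. It was at 350 CPM (334 to 366) in cluster 1, 352 CPM (325 to 380) in cluster 5 and 422 CPM (383 to 465) in cluster 7. Cluster 7 thus joined the lowest Aqp5 level to the highest Car2 level.

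Atp1b1 followed a similar order, from 112 CPM (100 to 124) in cluster 2 to 287 CPM (273 to 302) in cluster 1 and 426 CPM (387 to 469) in cluster 7. Clusters 4, 5 and 6 lay between 224 and 231 CPM with overlapping intervals. Slc4a4 had another order. It was highest in cluster 3 at 99.6 CPM (90.5 to 109), which overlapped the 84.7 CPM (67.6 to 105) of cluster 7. It was lowest in cluster 5, the cluster with the most Aqp5, at 24.0 CPM (17.4 to 32.3), and its interval overlapped that of cluster 6, at 38.6 CPM. Cluster 2 was at 70.4 CPM (61.3 to 80.4). Kcnq1 lay between 30.1 CPM (24.3 to 36.9) in cluster 2 and 52.1 CPM (46.1 to 58.6) in cluster 1.

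The rarest members had few UMIs in any cluster. Of the 35 Cftr UMIs, 14 were in cluster 1 and 8 in cluster 7, whose level was 7.97 CPM (3.44 to 15.7). Cluster 7 held 4.99% of all gene UMIs and 22.9% of the Cftr UMIs. Aqp3 had no UMI in clusters 1, 4 and 5, and at most 3 UMIs in any other. Summed levels of the 5 pit cell markers (Muc5ac, Tff1, Gkn1, Gkn2 and Gkn3) were 5523 CPM in cluster 7, and from 122 to 358 CPM elsewhere. Their part in the Cftr and Car2 levels of cluster 7 was not tested. Of the parietal cell markers, Atp4b and Slc26a7 had no UMI in any cell, Kcne2 had 1, and Atp4a had 29 in 27 cells.

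**Figure D2:**
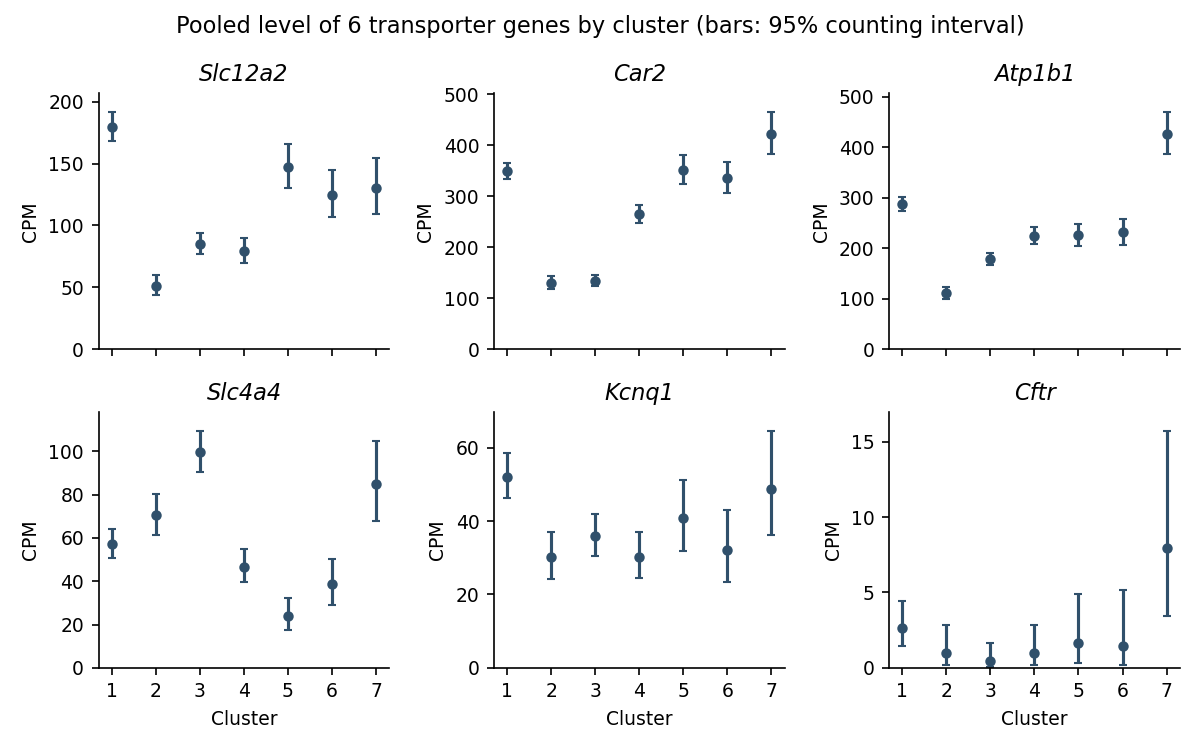
Pooled level (CPM, axes from 0) of 6 transport genes in 7 clusters, with 95% counting intervals as bars. Slc12a2, Car2 and Atp1b1 are lowest in cluster 2, at 51.4, 131 and 112 CPM, while Slc4a4 peaks in cluster 3 at 99.6 CPM and is lowest in cluster 5.

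To find genes that change with Aqp5, the 1892 cells were ordered by Aqp5 level and divided into 4 bins of 473 cells. The Aqp5 medians of the bins were 128, 611, 1285 and 2437 CPM, set by this choice. The bottom bin ended at 367 CPM and the top bin began at 1710 CPM. Of all cells, 161 lay within 10% of the upper limit and 65 within 10% of the lower one, so the bins are ranges of a continuous level and not cell types. Median depths were 8228, 9388, 8698 and 7990 UMIs from the bottom to the top bin. Ribosomal protein genes took 37.2% of UMIs in the bottom bin and 34.9% in the top one, and mitochondrially encoded genes between 3.98% and 4.09% in all bins. Cells of clusters 2 and 3 made up 43.8% and 30.9% of the bottom bin, and 4.86% each of the top bin. Cluster 7 gave 8.46% of the bottom bin and none of the top.

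A gene was called when its level differed by 1.5 times or more between the top and bottom bins. Among the 6489 genes other than Aqp5 that were seen in 10% of cells or more, 566 were called higher (8.72%) and 516 lower (7.95%). Of the 7 other members, 5 passed the filter on the share of cells. Car2 was called higher, Slc4a4 was called lower, and Slc12a2, Atp1b1 and Kcnq1 were not called. Without cluster 7, Slc12a2 and Atp1b1 also passed the limit. With bins taken inside each cluster, no member passed it, and the calls of Car2 and Slc4a4 were lost. Aqp3 and Cftr did not pass the filter.

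Car2 was higher in each step of Aqp5, at 176 CPM (165 to 189), 230 CPM (217 to 243), 299 CPM (285 to 315) and 333 CPM (316 to 350) from the bottom to the top bin. No neighbouring intervals overlapped. The top level was 1.89 times the bottom one (1.73 to 2.05). Without cluster 7 it was 2.37 times (2.16 to 2.61), and with bins taken inside each cluster 1.25 times (1.15 to 1.36). The Car2 difference was thus smaller inside clusters than over all cells.

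Slc4a4 was at 83.8 CPM (75.9 to 92.4), 78.9 CPM (71.5 to 86.7), 46.7 CPM (41.0 to 52.9) and 45.7 CPM (39.8 to 52.3) in the same order. The lower 2 bins overlapped, as did the upper 2, with a step between them. The top level was 0.545 times the bottom one (0.460 to 0.646), and 0.573 times (0.480 to 0.681) without cluster 7. Inside clusters the ratio was 0.812 (0.689 to 0.957). Car2 and Slc4a4 therefore had opposite courses along the Aqp5 order.

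Slc12a2 was at 89.8 CPM (81.6 to 98.7) in the bottom bin, 98.7 CPM (90.5 to 107) in the second, 142 CPM (132 to 153) in the third and 128 CPM (118 to 139) in the top one. Its ratio of top to bottom was 1.43 (1.26 to 1.62), and 1.54 (1.35 to 1.75) without cluster 7. Atp1b1 was at 197 CPM (185 to 210), 216 CPM (204 to 229), 242 CPM (228 to 255) and 243 CPM (229 to 258), a ratio of 1.23 (1.13 to 1.35), and 1.52 (1.38 to 1.67) without cluster 7. The interval for Atp1b1 held 1 in CMO301 cells, at 1.12 (0.998 to 1.26), and at 3000 UMIs per cell, at 1.15 (0.968 to 1.37). Inside clusters both ratios were close to 1, at 1.01 (0.892 to 1.15) for Slc12a2 and 1.01 (0.922 to 1.10) for Atp1b1. Kcnq1 was at 37.4 CPM (32.1 to 43.2) in the bottom and 45.5 CPM (39.6 to 52.1) in the top bin, and the interval of its ratio, 1.22 (0.994 to 1.49), held 1. That interval excluded 1 without cluster 7, at 1.25 (1.02 to 1.55), and inside clusters, at 1.25 (1.02 to 1.54). It also excluded 1 under a stricter cell filter, at 1.26 (1.02 to 1.55), and with 3 bins in place of 4, at 1.24 (1.04 to 1.48). It held 1 with doublets removed, at 1.21 (0.985 to 1.48), at 3000 UMIs per cell, at 1.29 (0.873 to 1.91), and within each tag, at 1.17 (0.879 to 1.55) and 1.23 (0.912 to 1.67). Cftr had 6, 9, 13 and 7 UMIs in the bins and Aqp3 had 3, 4, 0 and 0, too few to compare.

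**Figure D3:**
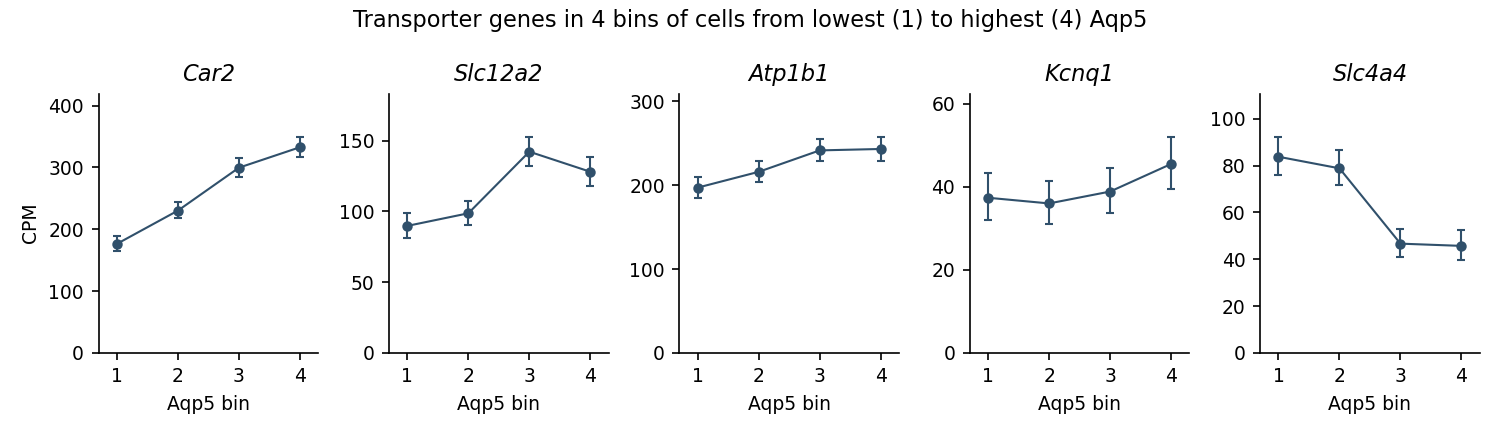
Level (CPM, axes from 0) of 5 transport genes in the 4 bins of cells from lowest to highest Aqp5, with 95% counting intervals as bars. Car2 climbs from 176 to 333 CPM, Slc4a4 drops from 83.8 to 45.7 CPM, and Kcnq1 stays between 36.0 and 45.5 CPM.

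Across the 1892 cells, the Spearman correlation of Aqp5 with Car2 was 0.27, with Atp1b1 0.15, with Slc12a2 0.11, with Kcnq1 0.05 and with Slc4a4 -0.15. Cells share 1 library, so these values describe it and carry no p-value. For comparison, the 5 and 95 percentiles over the 6489 genes that passed the filter were -0.09 and 0.13, and 0.848% of them had a higher value than Car2. These genes were not matched to Car2 for level, so its place among them is not read as a rank at equal level. The correlation of Aqp5 with the number of UMIs per cell was -0.0008. At 3000 UMIs per cell the value for Car2 was 0.17 and for Slc4a4 -0.10, and those of the other 3 were 0.05 or less. As means within clusters they were 0.12 for Car2 and -0.03 for Slc4a4. In cells tagged CMO301 and CMO302, which carry different multiplexing tags, Car2 was at 0.26 and 0.29 and Slc4a4 at -0.15 and -0.14.

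Of the 15 pairs among the 6 members that passed the filter or were Aqp5, Aqp5 with Car2 was the highest. Car2 with Atp1b1 followed at 0.22, Slc12a2 with Car2 at 0.20 and Slc12a2 with Atp1b1 at 0.18. These were 0.09, 0.09 and 0.08 at 3000 UMIs per cell. Slc4a4 was below 0 with Aqp5, Car2 (-0.13) and Atp1b1 (-0.01). In counts this sparse, values near 0.1 are not read as a relation, and the pairs were not matched for level.

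Other genes followed Aqp5 more closely than any transporter. Rhox5, an X-linked homeobox gene best known from the reproductive tract, had the highest correlation, 0.52, and its level went from 633 CPM in the bottom bin to 1677 CPM in the top one, or 2.65 times (2.54 to 2.76). Next were Tmem176a (0.51) and Tmem176b (0.50), which encode related membrane proteins. Tmem176a was at 595 CPM in the bottom bin and 3120 CPM in the top one, 5.25 times (5.04 to 5.46), and Tmem176b differed by 3.90 times (3.73 to 4.07). Wfdc2, a secreted protein with whey acidic protein domains, had 0.49 and a ratio of 1.77 (1.73 to 1.80). Ly6a, the surface protein Sca-1 and a marker of regenerating epithelium, had 0.48, and 2079 CPM in the bottom bin against 4423 CPM in the top one.

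The rest of the 12 genes with the highest values were Hspb1, Bcam, Tmsb4x, Uqcr11, Ly6e, Fabp5 and Anxa1, with correlations from 0.45 down to 0.38. Bcam, a laminin receptor, was 4.66 times as high in the top bin (4.17 to 5.22), and Hspb1, a small heat shock protein, 3.65 times (3.46 to 3.85). Fabp5, a fatty acid binding protein, differed by 2.96 times (2.83 to 3.10) and Anxa1, a phospholipid-binding protein, by 2.62 times (2.48 to 2.77). All 12 kept a positive value within each of clusters 1 to 5. Averaged within clusters, Ly6a (0.32) and Rhox5 (0.30) were highest, and Tmsb4x (0.11) and Anxa1 (0.14) lowest of the 12. Leaving out cluster 7 moved none of the 12 by more than 0.1, with 0.50 for Rhox5 and 0.47 for Ly6a.

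Other genes ran against Aqp5. Eif1, which helps to select the start codon in translation, had the lowest, -0.42, and went from 3331 CPM in the bottom bin to 1792 CPM in the top one. Bnip3, a protein of mitophagy, followed at -0.32, with 414 and 161 CPM, a ratio of 0.389 (0.357 to 0.423). The stress gene Ndrg1 (-0.30) had the widest ratio of the 12, with 107 CPM in the bottom and 18.5 CPM in the top bin, or 0.173 (0.136 to 0.217). Pgk1, a glycolytic enzyme, was at -0.29, with a ratio of 0.591 (0.567 to 0.616), and Ero1l, an oxidase of protein folding in the endoplasmic reticulum, at -0.25, with 0.396 (0.360 to 0.435). Mt1 (-0.27), a metal-binding protein, had a ratio of 0.338 (0.327 to 0.349). The others were Tpt1, 1110038B12Rik, Epb41l4aos, Ftl1, Clta and Lgals3, from -0.31 to -0.26.

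Within clusters these negative values were small. Eif1 (-0.16), Tpt1 (-0.14) and Lgals3 (-0.10) were the lowest means within clusters. Bnip3 (-0.05), Ndrg1 (-0.08) and Mt1 (-0.01) lay nearer 0, and Pgk1 changed sign, to 0.03. Mt1 is a leading gene of cluster 2, which gave 207 of the 473 cells of the bottom bin. Eif1, Tpt1, Ftl1 and Tmsb4x belong to families with processed copies in the genome, so their counts are uncertain where reads could be shared.

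**Figure D4:**
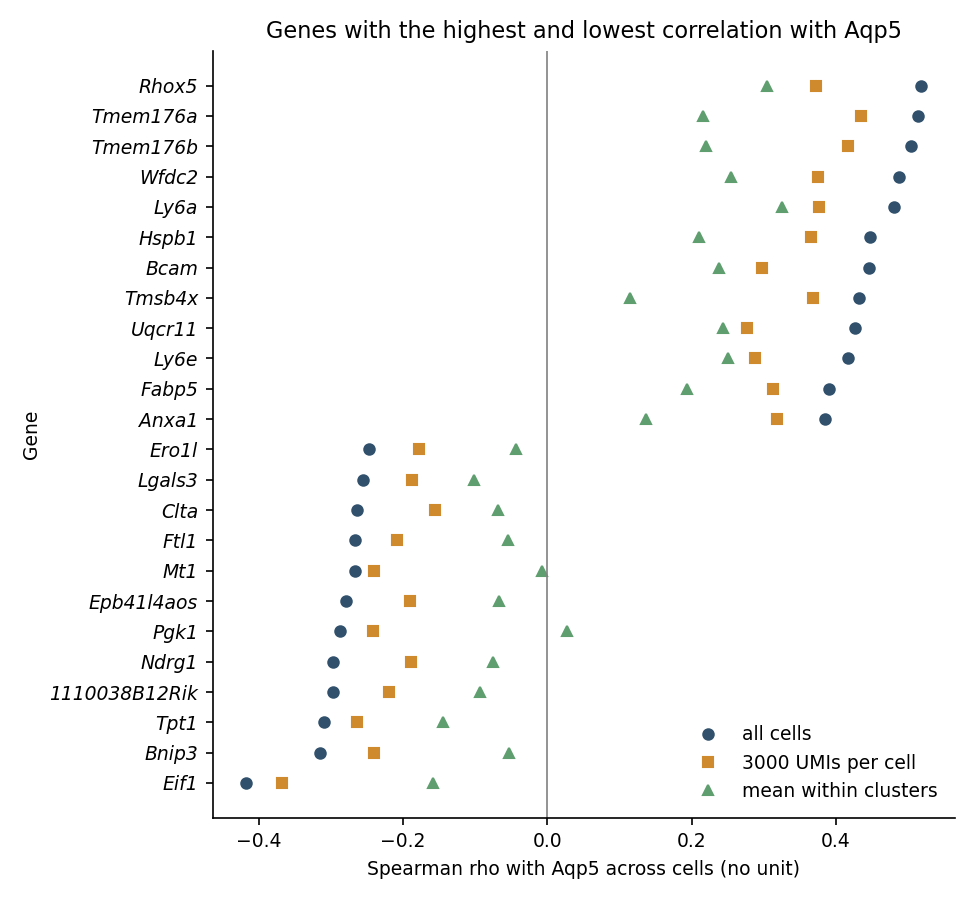
Spearman correlation with Aqp5 across cells (no unit) for the 12 genes with the highest and the 12 with the lowest values, in all cells, at 3000 UMIs per cell and as the mean within clusters. Positive genes keep values of 0.11 or more within clusters, while the negative genes lie between -0.16 and 0.03 there.

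A second list of water and ion transport holds none of the 8 members. Of its 79 genes, 26 had no UMI and 17 were seen in 10% of cells or more. Of these 17, 2 were called higher in the top Aqp5 bin and 1 lower, against 8.72% and 7.95% of all genes. Their median log2 ratio was 0.02, and that of all genes -0.0017. The 2 higher genes of this list were Aqp11, at 1.65 times (1.18 to 2.32), and the sodium bicarbonate cotransporter gene Slc4a7, at 1.61 times (1.27 to 2.05). Its lower gene was Car9, a carbonic anhydrase of the cell surface known to be induced in low oxygen.

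Car9 was at 148 CPM (142 to 153) in all cells, with 177 CPM in the bottom and 97.7 CPM in the top bin, a ratio of 0.553 (0.492 to 0.620). Its correlation with Aqp5 was -0.19, and 0.0029 as a mean within clusters. The 2 carbonic anhydrases Car2 and Car9 thus differed in direction between the bins. Among sodium pump genes, Fxyd3, a regulator of the pump, was at 242 CPM with a ratio of 1.14 (1.05 to 1.24), and Atp1b3, another beta subunit, at 50.3 CPM with 1.02 (0.844 to 1.24). Fxyd3, Atp1b3 and, further on, Stk39 were chosen after their values were seen.

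In the roles that follow, none of the genes named was called. The chloride channel list was led by Clic1, at 234 CPM and a ratio of 0.906 (0.834 to 0.985), and the potassium channels by Kcnk1, at 89.5 CPM and 1.10 (0.960 to 1.26). Sodium entry was led by Scnn1a, a subunit of the epithelial sodium channel, at 86.6 CPM and 0.995 (0.862 to 1.15). Scnn1b and Scnn1g, its partner subunits, had no UMI. Among regulators, the kinase gene Wnk1 was at 87.5 CPM with a ratio of 1.01 (0.876 to 1.17). Stk39, a kinase that activates the product of Slc12a2, had a ratio of 0.673 (0.532 to 0.848), just short of the limit for a call. The acid pump list was led by Atp4a, at 1.44 CPM, which was under the filter.

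Markers of cell types also differed between the bins. The 5 pit cell markers summed to 1258 CPM in the bottom and 152 CPM in the top bin, a ratio of 0.121 (0.111 to 0.130), and 0.474 (0.432 to 0.520) without cluster 7. Tff1, the most abundant of them, had 900 and 91.7 CPM. The 7 proliferation markers summed to 218 and 158 CPM, a ratio of 0.723 (0.657 to 0.795). Without cluster 7 that ratio was 1.03 (0.923 to 1.14). The 4 fetal or regenerative markers were at 5559 and 8130 CPM, a ratio of 1.46 (1.44 to 1.49), and of 1.84 (1.81 to 1.87) without cluster 7. Of these, Ly6a and Anxa1 are among the 12 genes nearest to Aqp5, and Clu had a ratio of 0.881 (0.860 to 0.902) that turned to 1.53 (1.49 to 1.58) without cluster 7. The 4 stem cell markers (Lgr5, Axin2, Cd44 and Sox9) were at 118 and 143 CPM, a ratio of 1.22 (1.09 to 1.36), and of 1.34 (1.19 to 1.52) without cluster 7. Most of their UMIs were of Sox9, with a ratio of 1.32 (1.14 to 1.53). The intervals of Lgr5 (0.642 to 2.21), Axin2 (0.913 to 1.73) and Cd44 (0.762 to 1.23) held 1. The 3 markers of mucous neck and antral gland cells (Muc6, Tff2 and Glipr1) were lower in the top bin, at 32.0 CPM in the bottom and 10.4 CPM in the top one. Their ratio was 0.323 (0.229 to 0.450), and 0.288 (0.204 to 0.401) without cluster 7. Tff2 gave most of these UMIs, with a ratio of 0.309 (0.204 to 0.456), and Muc6 had 1 UMI in both bins together. The 3 immune cell markers had a ratio of 0.333 (0.211 to 0.511), and 0.340 (0.213 to 0.527) without cluster 7. Nearly all of their UMIs were of Cd68, and Ptprc, their defining gene, had none in either bin. The 4 chief cell markers had 36 UMIs in both bins together and a ratio of 0.460 (0.204 to 0.968), and of 1.85 (0.626 to 6.08) without cluster 7. The 4 epithelial markers had a ratio of 1.03 (1.01 to 1.06). The part of these marker differences in the courses of the transport genes was not tested.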

How the data were processed

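The authors deposited counts of UMIs as whole numbers without normalization. Per the submitters' processing notes, Cell Ranger 6.1.2 was used with the build GRCm38/mm10. The annotation used is not given in the sources used here. The matrix also holds 12 multiplexing tags (21.4% of all UMIs), kept out of every total. No label ties a tag to a suspension, so the matrix is 1 sample. Text files of gene names and barcodes hold no other measurement.

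The cell filter, CPM, bins and correlations were computed from these counts with numpy 2.4.6 and scipy 1.17.1. Intervals are exact (Poisson, Clopper-Pearson, conditional binomial). Clusters were made with scanpy 1.11.5 and leidenalg 0.10.2 (2000 variable genes, 30 components, 15 neighbours, resolution 0.6), without the members, the transport list, mitochondrially encoded and sex-linked genes and those of the cell cycle. Scrublet marked 12 cells as doublets (0.634%), which were kept here and removed in an alternative. Coordinates are from GENCODE M21. Genes named are the members, the gene with the highest level in each role of the transport list and those called, which were added after the values were seen, the 12 genes at each end of the correlation (ribosomal protein genes left out) and 3 leading genes per cluster. For some roles that gene is not reported here. Members and lists were chosen with earlier results of these data known. Leaving cluster 7 out of the marker lists was added after the data were seen. Steps were tested on simulated data.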

Additional observations from a re-analysis of the deposited data

Results flagged for a closer look

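The multiplexing tags lie outside the gene counts and served only to repeat results in the cells of each tag. Of all barcodes, 55.7% had CMO301 as their strongest tag and 44.3% had CMO302, while the other 10 tags led in none. Aqp5 was at 1182 CPM (1162 to 1202) in the 1062 cells of the first tag and 1096 CPM (1075 to 1118) in the 830 cells of the second, at median depths of 8387 and 8595 UMIs. In clusters 3, 4, 5 and 7 the intervals of the Aqp5 level in the 2 tags overlapped, and in clusters 5 and 7 the second tag was the higher, at 2013 against 1887 CPM and 323 against 295 CPM. In cluster 1 the levels were 1528 CPM (1483 to 1575) in the first tag and 1430 CPM (1384 to 1478) in the second. In cluster 2 the Aqp5 levels by tag were 616 CPM (579 to 655) and 452 CPM (417 to 489), and in cluster 6 they were 1308 CPM (1234 to 1386) and 968 CPM (885 to 1057). Car2 was at 258 and 260 CPM in the cells of the 2 tags, with overlapping intervals. Slc4a4 was at 60.4 CPM (55.9 to 65.1) and 68.6 CPM (63.3 to 74.2). No label says what a tag stands for, and these differences were not tested.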

How the results depend on the processing

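Across 15 alternatives, 357 values of 46 results were recomputed. A value counted as the same within its counting interval, a correlation within 0.1 and a count of genes within 1.5 times. For correlations near 0.1 or under, as of Kcnq1 and Slc12a2, that tolerance says nothing of stability: Slc12a2 went from 0.11 to 0.030 at 3000 UMIs per cell and to 0.018 within clusters. Levels and counts of genes cannot change sign, so among the values that answer a comparison only the correlations could. Of the values that answer a comparison, 89 stayed the same, 31 moved and 0 changed sign, and of the others 195 stayed, 41 moved and 1 changed sign. That 1 was Pgk1, whose mean correlation with Aqp5 within clusters was 0.027. The causes were not tested, except where fewer cells, UMIs or genes enter by construction.

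Without cluster 7 the levels were 1188 CPM for Aqp5, 250.3 CPM for Car2 and 214 CPM for Atp1b1. Cells of the tag CMO301 gave 1182 CPM for Aqp5 and 60.4 CPM for Slc4a4. Cells of CMO302 gave 1096 CPM for Aqp5, 0.112 CPM for Aqp3 (1 UMI), 120 CPM for Slc12a2 and 68.6 CPM for Slc4a4. At 3000 UMIs per cell the levels were 1200 CPM for Aqp5, 0.727 CPM for Cftr, 102 CPM for Slc12a2, 273 CPM for Car2, 211 CPM for Atp1b1 and 59.2 CPM for Slc4a4. Means over cells gave 1194 CPM for Aqp5, 106 CPM for Slc12a2 and 214 CPM for Atp1b1.

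The numbers of genes called higher and lower were 249 and 160 at 3000 UMIs per cell, where 2835 genes passed the filter. They were 850 and 863 of 8585 genes with a UMI in at least 5% of cells (9.90% and 10.1%), and 153 and 111 with bins taken within clusters, of which 111 and 71 were among the 566 and 516 of the main comparison. The correlation of Aqp5 with Car2 was 0.17 at 3000 UMIs and 0.12 within clusters, with Atp1b1 0.050 and 0.039, and with Slc4a4 -0.031 within clusters. At resolution 0.3, which gave 3 clusters, the lowest and highest Aqp5 levels of a cluster were 543 and 1609 CPM. Aqp3 and Cftr had 7 and 35 UMIs, and the part of depth in these low counts was not tested. No paired analysis was possible because the files hold a single library.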

Other observations

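Cdx2, a transcription factor of the intestine, had 23.5 CPM in the top Aqp5 bin and 13.6 CPM in the bottom one, a ratio of 1.73 (1.26 to 2.38), and 1.75 (1.27 to 2.44) without cluster 7. Of the other intestinal markers, Cdx1 and Fabp1 had no UMI. Vil1 had a ratio of 0.739 (0.495 to 1.10), and of 0.984 (0.635 to 1.53) without cluster 7. Of the 79 genes of the second transport list, 17 passed the 10% filter. Among the rest, 3 had intervals of the ratio that excluded 1, and they were picked after their values were seen. The share of all genes under the filter with such intervals was not computed, so these 3 are not read as a result about transport. Aqp1 was at 16.0 CPM in the top and 6.19 CPM in the bottom bin (2.58 times, 1.66 to 4.08), and the chloride channel gene Clcn2 at 12.5 and 5.37 CPM (2.33 times, 1.44 to 3.86). The potassium channel gene Kcnj15 was at 0.216 and 3.51 CPM (0.0614 times, 0.0015 to 0.392), with 28 UMIs in 15 cells overall.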
